A study of Mus musculus with 9 samples.

Results

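The interferon receptor and JAK kinase genes are 8 genes, Ifnar1, Ifnar2, Ifngr1, Ifngr2, Jak1, Jak2, Jak3 and Tyk2. They were taken by symbol from the 24054 genes in the files, and all 8 were found and passed the filter on low counts. Their mRNA was measured by RNA sequencing in 9 libraries of sorted splenic dendritic cells (DC) from C57BL/6 mice homozygous for both Clec9a-Cre and a Rosa26 tdTomato reporter. In these mice Cre is driven by Clec9a, a gene of DC precursors, so that red fluorescence (TOM+) marks cells with a history of Clec9a expression. All groups carried these alleles, none was treated, and all were sorted as live autofluorescence-negative MHCII+ CD11c+ CD11b+ cells. The groups, of 3 libraries each, were TOM+ type 2 conventional DC (cDC2) and TOM- DC2 from mice 8 days old, and TOM+ cDC2 from adults of 8 or 9 weeks. Spleens of young mice were pooled for sorting. There were no TOM- libraries from adults, so that a comparison of TOM- DC2 with adult cells changes age and Clec9a history together.

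Type I interferons bind a receptor of IFNAR1 and IFNAR2, and interferon gamma binds a receptor of IFNGR1 and IFNGR2. The chains have no enzyme activity of their own and carry Janus kinases (JAKs) on their inner parts. TYK2 sits on IFNAR1, JAK1 on IFNAR2 and IFNGR1, and JAK2 on IFNGR2, whereas JAK3 serves cytokine receptors with the common gamma chain. Once bound, the kinases phosphorylate STAT factors, which carry the signal to the nucleus. In DC, interferons are known for raising antigen presentation and costimulation.

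Between 12783252 and 22809401 reads per library were counted on genes, and each of the 8 genes had at least 893 counts in every library. Levels are given as TPM, an estimate of transcript abundance corrected for transcript length and library size, and differences as log2 fold changes of counts, with the first group relative to the second. A gene passed the test when its adjusted p was below 0.05, and was called when its log2 fold change was also beyond 1. The cDC2 markers were detected in all groups, with a summed TPM of 17580 to 19097 in young libraries and 30100 to 32329 in adults. Most of this sum was the MHC class II gene H2-Ab1, at a mean of 16830 TPM in young TOM+, 16216 in young TOM- and 28827 in adult cells. The other markers differed in direction. Sirpa, for example, was at 753, 688 and 470 TPM in these groups, and Clec4a4 at 108, 126 and 259 TPM. Esam, a marker of a cDC2 subset, was at 19.0, 28.4 and 80.0 TPM. According to the paper, cells with high ESAM made up a slightly smaller part of cDC2 at the young age sequenced than in adults. Clec9a itself was under 1 TPM throughout. The paper states, however, that mice homozygous for this Cre have no functional DNGR-1, the product of Clec9a. Its level therefore cannot be used to judge how many type 1 conventional DC (cDC1) were present. The cDC1 markers summed to 176 to 206 TPM over all libraries. Most of this was Batf3, at a mean of 160 TPM in young TOM+, 158 in young TOM- and 187 in adult cells. Cadm1 was at 19.7, 19.7 and 6.54 TPM in these groups, and Xcr1 at 3.30, 3.21 and 2.64 TPM. Tlr3 was at 2.90, 2.72 and 2.30 TPM, and Itgae was under 1 TPM throughout. Proliferation genes summed to 1336 to 1533 TPM in young libraries and 605 to 744 TPM in adults. Monocyte and macrophage markers summed to 812 to 1026 TPM over all libraries, and T cell and NK cell markers to at most 7.13 TPM. Most of the monocyte and macrophage sum was Cd68, at a mean of 634, 604 and 629 TPM, and Csf1r, at 241, 206 and 169 TPM. C1qa, C1qb, Ccr2 and Vcam1 had group means of 8.86 to 73.3 TPM, while Fcgr1, Mertk and Ly6c2 reached at most 2.22 TPM. Innate lymphoid cell markers summed to 150 to 189 TPM in TOM+ and 219 to 287 TPM in TOM- young cells, and to 285 to 340 TPM in adults. Most of this was Kit, at a mean of 169, 224 and 313 TPM. Erythroid markers reached 1173 TPM in 1 TOM- library against at most 96.3 TPM in the other groups. The part of these populations, and of the subsets with high or low ESAM, in the results was not tested. In bulk samples fewer cells of a type cannot be told apart from less RNA per cell.

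In cDC2 of adults, mRNA for both chains of the interferon gamma receptor was higher than in young TOM+ cDC2, and mRNA for Jak3 and Tyk2 was lower. Ifngr1 differed most among the 8 genes, at 1.70-fold. For Ifnar1 the difference was small, and for Ifnar2, Jak1 and Jak2 it did not pass the test. In all, 5 of 8 genes passed between young and adult TOM+ cDC2, 3 of them lower and 2 higher in young cells. Across all 14452 genes tested, 40.6% passed, 19.5% lower and 21.0% higher in young cells, so that passing was common in this comparison. None of the 8 genes was called by edgeR, DESeq2 or limma, against 12.8% called over all genes. An unadjusted p below 0.05 was found for 7 of the 8, and for 48.6% of all genes.

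**Figure D1:**
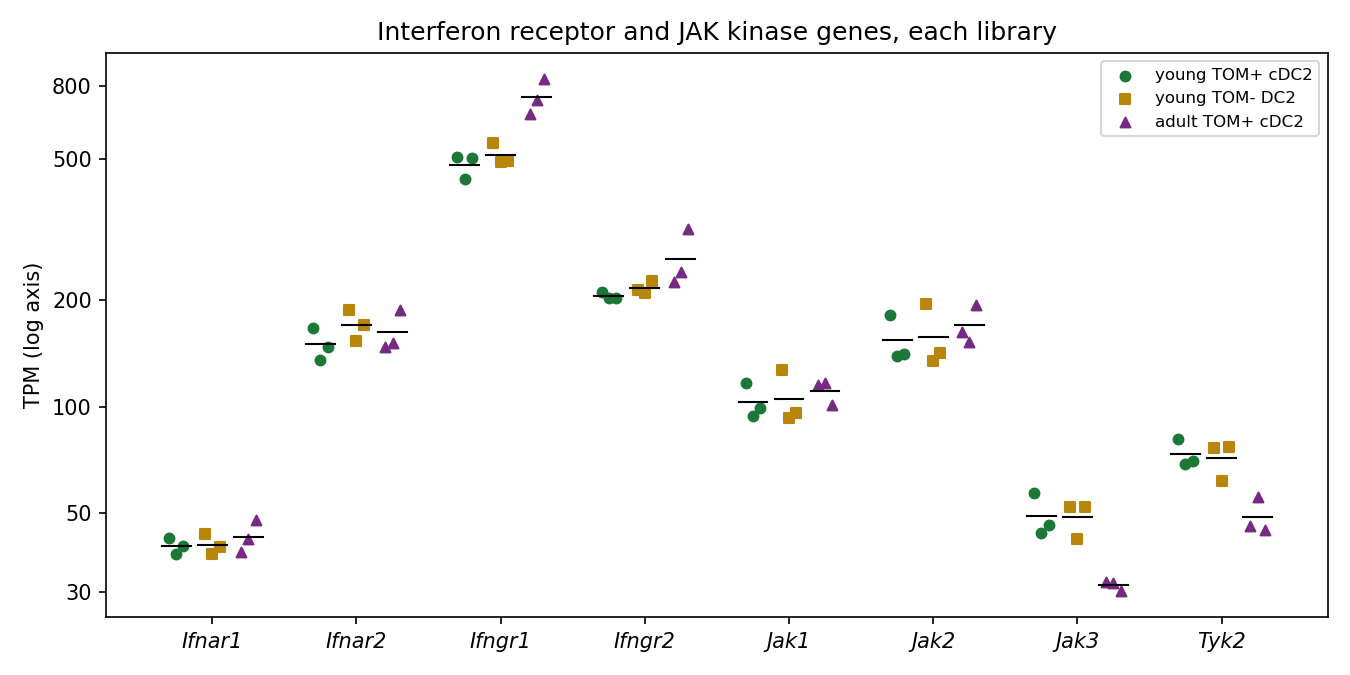
Levels of the 8 genes in TPM on a log axis, with a point for each library and a line at the mean of each group. The 3 adult points of Ifngr1 lie at 671 to 841 TPM and the 6 young ones at 439 to 553 TPM, and those of Jak3 at 30.1 to 32.1 TPM and 42.4 to 57.1 TPM.

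The levels of the 8 genes had nearly the same order in each group. In young TOM+ cDC2, mean TPM was 482 for Ifngr1, 205 for Ifngr2, 154 for Jak2, 150 for Ifnar2, 103 for Jak1, 73.3 for Tyk2, 49.2 for Jak3 and 40.5 for Ifnar1. Of these neighbours, Jak2 and Ifnar2 overlapped in every group and their order turned in young TOM- DC2. Ifnar1 was lowest in both young groups, where its range overlapped that of Jak3 in TOM- DC2. In adults Jak3 was lowest, at 31.4 TPM, and Ifnar1 overlapped Tyk2. All other neighbours were apart in the libraries of each group.

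Ifngr1 encodes the chain that binds interferon gamma. It was at 504, 439 and 501 TPM in young TOM+ cDC2, at 553, 488 and 494 TPM in young TOM- DC2, and at 671, 734 and 841 TPM in adult TOM+ cDC2. The adult libraries were all above the 6 young ones. The log2 fold change of young against adult TOM+ cDC2 was -0.76 ± 0.09 (SE, n = 3 per group, adjusted p = 2.86e-05), and that of young TOM- DC2 against the same adults was -0.71 ± 0.09 (adjusted p = 6.27e-05). It passed in both comparisons under every alternative run. The gene spans chr10:19591949-19610229 (GRCm38, plus strand).

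Ifngr2 encodes the signalling partner that brings in JAK2. Its levels were 210, 203 and 202 TPM in young TOM+ cDC2, 213, 209 and 226 TPM in young TOM- DC2, and 224, 240 and 317 TPM in adults. Adult libraries were all above young TOM+ cDC2, while the lowest adult overlapped the highest TOM- library in TPM. Its log2 fold change was -0.47 ± 0.11 (adjusted p = 0.0040) for young against adult TOM+ cDC2 and -0.42 ± 0.11 (adjusted p = 0.0091) for young TOM- DC2 against adults. It no longer passed when libraries were scaled to their totals only, with -0.27 (adjusted p = 0.0595) and -0.20 (adjusted p = 0.161), nor, for TOM- DC2, when log2(TPM + 1) was tested with limma (-0.25, adjusted p = 0.0878). In TOM+ cells limma without a filter gave -0.33 (adjusted p = 0.0597).

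Because Ifngr1 differed more than Ifngr2, their TPM ratio differed too. It was 2.35 ± 0.16 (SD, n = 3) in young TOM+ cDC2, 2.37 ± 0.21 in young TOM- DC2 and 2.90 ± 0.22 in adults. The groups of different age did not overlap. An exact two-sided permutation test of the log2 ratio gave p = 0.1 for each of both comparisons with adults, which is the smallest value that 3 against 3 libraries allow.

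Ifnar1 encodes the chain that carries TYK2. It was at 42.7, 38.4 and 40.4 TPM in young TOM+ cDC2, at 43.8, 38.5 and 40.2 TPM in young TOM- DC2, and at 39.0, 42.2 and 47.8 TPM in adults, so that the groups overlapped. As CPM (counts scaled by edgeR to a common library size), the 3 adult libraries, at 177, 193 and 208, lay above the 6 young ones, at 160 to 169. Ifnar1 had a log2 fold change of -0.22 ± 0.08 (adjusted p = 0.045) for TOM+ and -0.24 ± 0.08 (adjusted p = 0.035) for TOM- young cells. This result was among the least stable. Between young and adult TOM+ cDC2 it was lost on leaving out any of 7 of the 9 libraries (adjusted p = 0.0517 to 0.144) and kept without TOM- replicate 3 or adult replicate 1, and it was lost with library totals only (-0.02, adjusted p = 0.858) and with limma on log2(TPM + 1) (-0.08, adjusted p = 0.491). For TOM- DC2 it was lost without TOM+ replicate 2, any TOM- replicate, or adult replicate 2 or 3 (adjusted p = 0.0515 to 0.113). With the library number as a block within young libraries only, Ifnar1 passed in neither comparison (adjusted p = 0.103 and 0.0832), while it passed in both with the block over all libraries (adjusted p = 0.0318 and 0.0198).

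Ifnar2 encodes the chain that binds type I interferon most tightly and carries JAK1. Its levels were 166, 135 and 148 TPM in young TOM+ cDC2, 188, 153 and 170 TPM in young TOM- DC2, and 147, 152 and 187 TPM in adults. All groups overlapped. The log2 fold change of counts was -0.00 ± 0.11 (95% interval -0.24 to 0.23, adjusted p = 0.979) for young against adult TOM+ cDC2, and 0.17 ± 0.11 (-0.07 to 0.40, adjusted p = 0.253) for TOM- DC2 against adults. The latter passed without adult replicate 3 (0.30, adjusted p = 0.0251), with library totals only (0.38, adjusted p = 0.0179) and with the deposited library number as a replicate block (0.27, adjusted p = 0.0028), but not when only young libraries were blocked (0.22, adjusted p = 0.170).

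The mixture of Ifnar2 transcripts, in contrast, did not overlap between the ages. RSEM divided the reads of the gene between NM_010509 and NM_001110498. The longer has 9 exons and codes for the membrane-spanning chain. The shorter reads on past the end of exon 7 at chr16:91393913 into what is intron for the longer form, meets a stop codon there and ends at chr16:91394040. It is known as the soluble form of the chain. In GENCODE M21 the longer form is 3047 bases with a coding length of 1539 bases, and the shorter 1099 bases with 744. The last 30 bases that both share (chr16:91393884-91393913, GRCm38, plus strand) are shown in lower case, followed in capitals by the 38 bases in which they part, from exon 8 in the longer form and through the stop codon in the shorter.
NM_010509, longer form: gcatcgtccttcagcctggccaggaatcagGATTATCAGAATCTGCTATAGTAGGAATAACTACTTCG
NM_001110498, shorter form: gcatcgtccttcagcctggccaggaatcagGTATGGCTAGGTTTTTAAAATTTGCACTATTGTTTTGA

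The abundance-weighted length that RSEM gave for Ifnar2 was 2087, 2188 and 2189 bases in young TOM+ cDC2 and 2189, 2136 and 2183 bases in young TOM- DC2. In adults it was 1801, 1740 and 1916 bases. All adult libraries were thus below all young ones, with group means of 2155 ± 58.5 (SD, n = 3), 2169 ± 29.0 and 1819 ± 89.5 bases. The exact permutation p was 0.1 for both comparisons with adults, the smallest possible, and 0.8 between the young groups. If the transcripts had the GENCODE lengths, the longer form would make up 54.2% ± 3.0 of Ifnar2 transcripts in young TOM+ cDC2, 55.0% ± 1.49 in young TOM- DC2 and 37.0% ± 4.59 in adults. These shares depend on that assumption, since the lengths in the annotation used for the deposited estimates were not seen.

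**Figure D2:**
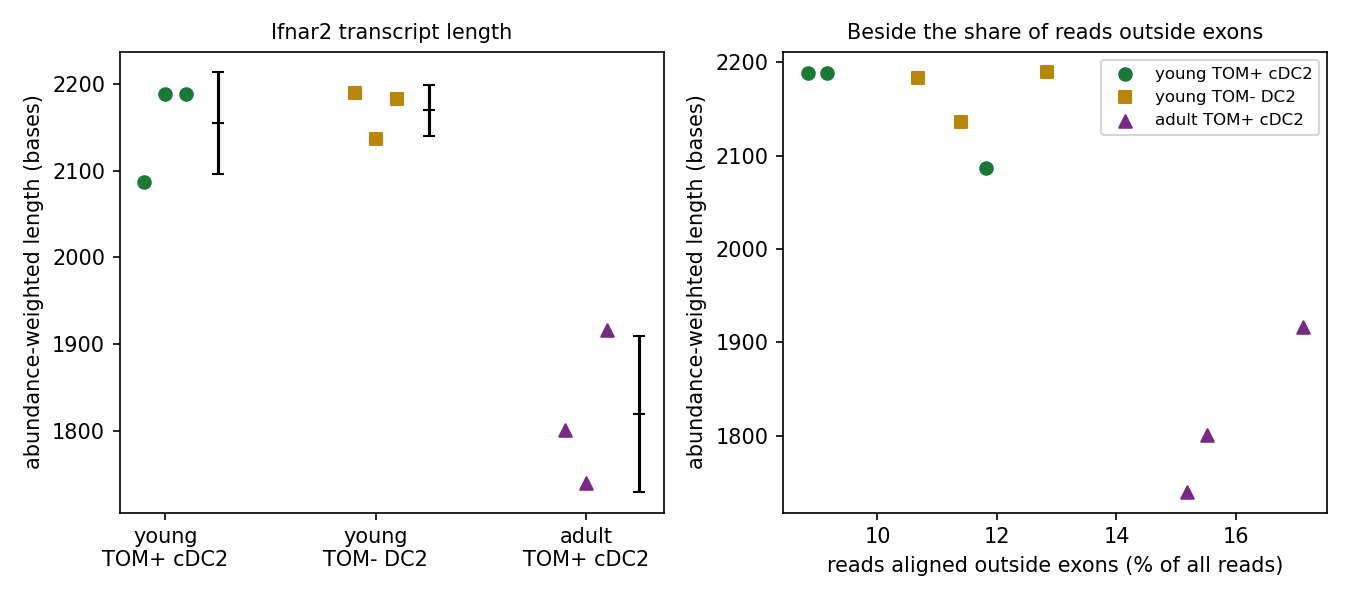
Left, abundance-weighted length of Ifnar2 transcripts in bases for each library, with mean and SD. Right, the same lengths against the percentage of all reads that aligned outside annotated exons. Adult libraries have lengths of 1740 to 1916 bases and 15.2% to 17.1% of reads outside exons, while young libraries have lengths of 2087 to 2189 bases and 8.84% to 12.8%.

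A shift of this size was uncommon. Among 2209 genes with more than 1 transcript and a mean TPM of at least 10, 9 genes had a larger change in weighted length between young and adult TOM+ cDC2, and 3 between TOM- DC2 and adults. Groups that do not overlap were less uncommon, at 20.1% and 18.9% of these genes, and at 8.65% between the young groups. The adult libraries also had more reads outside annotated exons, at 15.2% to 17.1% of all reads against 8.84% to 12.8% in young libraries. The stretch that only the shorter form counts as exon is intron of the longer form, and the part of such reads in the length was not tested. Within the young libraries, the TOM- library with 12.8% of reads outside exons had 2189 bases, and the TOM+ library with 11.8% had the lowest young value, 2087 bases.

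Because TPM divides by length, Ifnar2 moved differently by unit. The ratio of Ifnar1 to Ifnar2 in TPM was 0.271 ± 0.013 (SD, n = 3) in young TOM+ cDC2, 0.240 ± 0.010 in young TOM- DC2 and 0.266 ± 0.012 in adults. TOM- DC2 were below both other groups without overlap (exact permutation p = 0.1 each, the smallest possible), whereas young and adult TOM+ cDC2 overlapped (p = 0.7). With counts per kilobase of a fixed mean length, the log2 ratio was lower by -0.22 in young than in adult TOM+ cDC2, against a difference of 0.03 in TPM. Ifnar1 (chr16:91485032-91510523), Ifnar2 (chr16:91372783-91405589) and Ifngr2 (chr16:91547059-91564007) lie in 1 cluster on the plus strand of chromosome 16, with Il10rb, a chain of the interleukin-10 receptor, between Ifnar2 and Ifnar1.

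Of the kinases, Jak3 had the clearest difference. It was at 57.1, 44.1 and 46.5 TPM in young TOM+ cDC2, at 52.2, 42.4 and 52.2 TPM in young TOM- DC2, and at 32.1, 31.8 and 30.1 TPM in adults. No young library reached down to the adult range. Jak3 had a log2 fold change of 0.52 ± 0.10 (adjusted p = 0.0011) for TOM+ and 0.48 ± 0.10 (adjusted p = 0.0024) for TOM- young cells, and it passed under every alternative run. Jak3 (chr8:71676383-71690577) overlaps Insl3, which had at most 6 counts in any library. Its weighted transcript length was 3739 to 3763 bases in young and 3781 to 3789 bases in adult libraries.

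Tyk2, the kinase of IFNAR1, followed the same direction as Jak3 and not that of Ifnar1. Its levels were 80.95, 69.0 and 70.0 TPM in young TOM+ cDC2, 76.6, 61.5 and 76.9 TPM in young TOM- DC2, and 46.0, 55.5 and 44.8 TPM in adults. The young libraries were all above the adult ones. The log2 fold change was 0.44 ± 0.11 (adjusted p = 0.0067) between young and adult TOM+ cDC2 and passed under every alternative. For TOM- DC2 it was 0.38 ± 0.11 (adjusted p = 0.0166), which was lost without TOM- replicate 3 (0.29, adjusted p = 0.0861), adult replicate 1 (0.35, adjusted p = 0.0607) or adult replicate 3 (0.30, adjusted p = 0.0636). Tyk2 lies at chr9:21104068-21131393 on the minus strand.

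Jak1, used by both interferon receptors, was at 116, 94.1 and 99.4 TPM in young TOM+ cDC2, at 127, 93.1 and 96.0 TPM in young TOM- DC2, and at 115, 117 and 101 TPM in adults. Replicate 1 was the highest in both young groups, and the groups overlapped. Its log2 fold change of -0.24 ± 0.11 (adjusted p = 0.0954) did not pass for TOM+, nor did -0.25 ± 0.11 (adjusted p = 0.0938) for TOM- young cells. Without adult replicate 3, Jak1 passed in both (-0.32, adjusted p = 0.0371, and -0.33, adjusted p = 0.0372), and so it did for TOM- DC2 without TOM- replicate 1 (-0.35, adjusted p = 0.0233). Jak1 (chr4:101151974-101265282, minus strand) overlaps Raver2, which had at most 25 counts.

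Jak2, the kinase of IFNGR2, was at 181, 139 and 141 TPM in young TOM+ cDC2, at 195, 135 and 142 TPM in young TOM- DC2, and at 163, 152 and 194 TPM in adults. Again replicate 1 stood highest in both young groups and overlapped the adult range. The log2 fold change was -0.27 ± 0.12 (adjusted p = 0.0970) for TOM+ and -0.28 ± 0.12 (adjusted p = 0.0987) for TOM- young cells, and neither passed. It passed without TOM- replicate 1 in both comparisons (-0.27, adjusted p = 0.0483, and -0.41, adjusted p = 0.0146) and without TOM+ replicate 1 in the first (-0.37, adjusted p = 0.0415). The gene lies at chr19:29251803-29313095.

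For Jak1 and Jak2 the treatment of library numbers decided whether the test was passed. Libraries of both young groups with the same deposited number deviated together. With this number as a block over all 9 libraries, young against adult TOM+ cDC2 gave -0.40 for Jak1 (adjusted p = 4.6e-05) and -0.30 for Jak2 (adjusted p = 0.000637), and TOM- DC2 gave -0.41 (adjusted p = 4.35e-05) and -0.31 (adjusted p = 0.000565). Over all genes 47.9% passed with this block in the first comparison and 45.3% in the second. There, numbers 81 and 95 occurred at 1 age only, so that the age difference rested on numbers 91 and 92. With the block within young libraries only, Jak1 gave -0.09 (adjusted p = 0.523) and -0.10 (adjusted p = 0.479), and Jak2 gave -0.06 (adjusted p = 0.65) and -0.07 (adjusted p = 0.606).

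**Figure D3:**
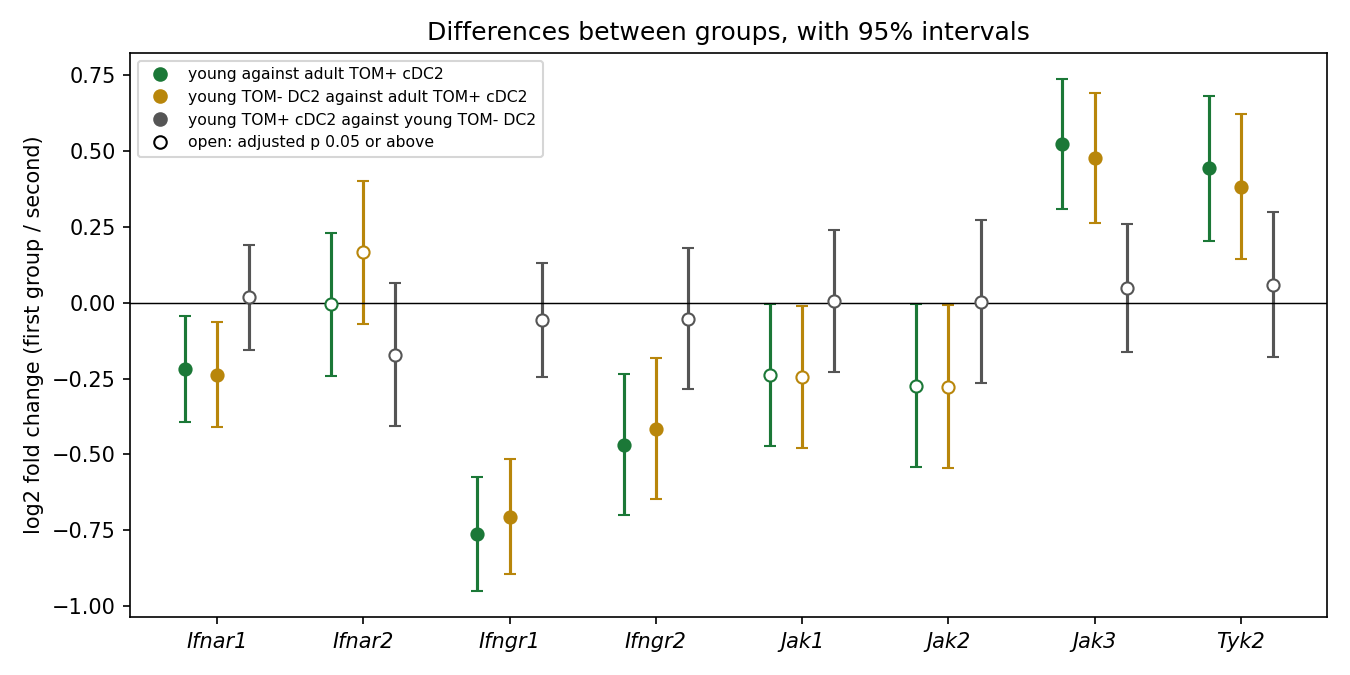
Log2 fold changes of the 8 genes in the 3 comparisons with 95% intervals, filled where the adjusted p was below 0.05. Ifngr1, at -0.76 and -0.71, is lowest in both comparisons with adults, and the grey intervals between the young groups all include 0.

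The summed TPM of the 4 kinases was 380 ± 48.6 (SD, n = 3) in young TOM+ cDC2, 383 ± 60.9 in young TOM- DC2 and 361 ± 8.07 in adults, with overlap. Their shares in this sum differed more clearly. Jak3 made up 13.0% ± 0.20 in young TOM+ cDC2, 12.9% ± 1.32 in young TOM- DC2 and 8.70% ± 0.48 in adults, and Tyk2 19.4% ± 0.70, 18.8% ± 1.99 and 13.5% ± 1.83. Neither overlapped between young and adult libraries (exact permutation p = 0.1 each, the smallest possible). Jak2 made up 40.4% ± 1.04, 40.8% ± 2.32 and 46.9% ± 4.99, apart between young and adult TOM+ cDC2 (p = 0.1, exact permutation test) but not for TOM- DC2 (p = 0.2). Jak1 made up 27.2% ± 0.56, 27.5% ± 1.11 and 30.8% ± 3.04, which overlapped.

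**Figure D4:**
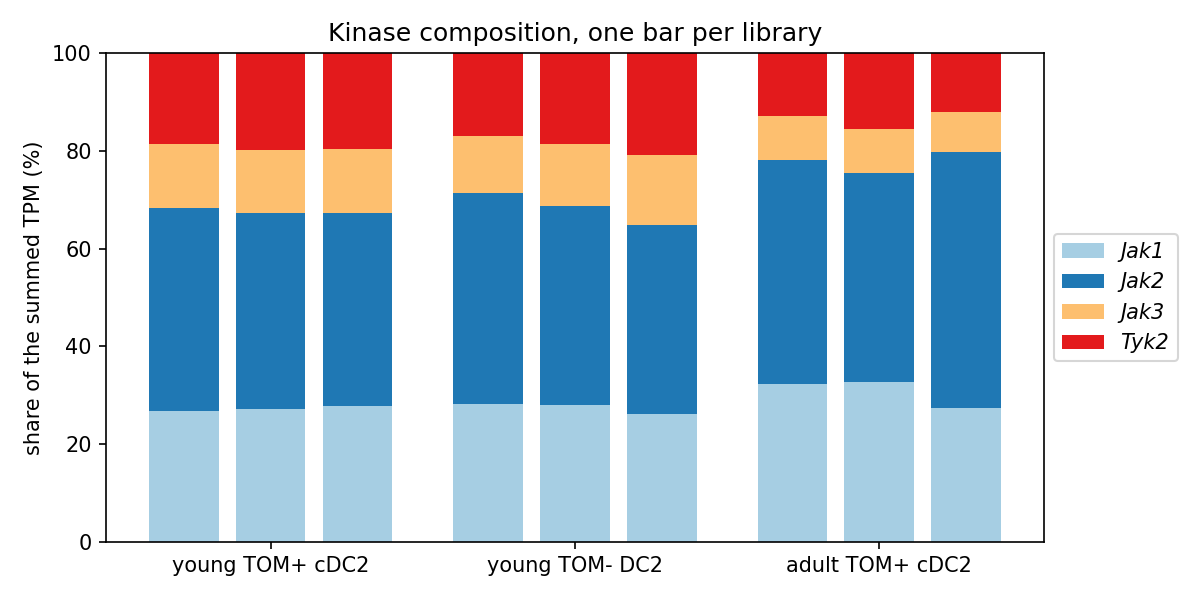
Share of Jak1, Jak2, Jak3 and Tyk2 in their summed TPM, in percent, with 1 stacked bar per library. Jak3 and Tyk2 take the upper part of each bar, which is smaller in the 3 adult libraries, where their mean shares are 8.70% and 13.5%.

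Between young TOM+ cDC2 and young TOM- DC2, which share age and differ in Clec9a history, none of the 8 genes passed. This count was 0 by edgeR without a block, also at an unadjusted p below 0.05, and 0 by DESeq2 and limma. Over all genes, 1.60% passed and 1.18% were called. The intervals, from the fit that leaves out the pairing of young libraries by number, bound how far the genes could differ. The widest distances from 0 were for Ifnar2, with a log2 fold change of -0.17 (95% interval -0.41 to 0.06), and Tyk2, with 0.06 (-0.18 to 0.30). Ifngr1 was at -0.06 (-0.25 to 0.13), Ifngr2 at -0.05 (-0.29 to 0.18), Ifnar1 at 0.02 (-0.16 to 0.19), Jak1 at 0.01 (-0.23 to 0.24), Jak2 at 0.00 (-0.26 to 0.27) and Jak3 at 0.05 (-0.16 to 0.26). With the library number as a block over all libraries, the lowest adjusted p was 0.078, for Ifnar2 (-0.17 ± 0.05). There 1 of the 8 genes had an unadjusted p below 0.05, as 2751 of all 14452 genes had. With the block within young libraries only, 0 of the 8 had, and Ifnar2 was at -0.17 ± 0.10 (adjusted p = 0.518).

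Young TOM- DC2 against adult TOM+ cDC2 had 5 of 8 genes past the test, Ifnar1, Ifngr1 and Ifngr2 lower and Jak3 and Tyk2 higher in young cells, and 0 called by edgeR, DESeq2 or limma, with 7 at an unadjusted p below 0.05, as 46.0% of all genes had. Over all genes 36.3% passed, 16.9% lower and 19.4% higher, and 11.3% were called. This comparison uses the same adult libraries as that of TOM+ cDC2, so that the like values above are not independent. Without TOM- replicate 3, 3 genes passed.

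The scaling of libraries matters for differences of this size. The median log2 fold change of all genes between young and adult TOM+ cDC2 was 0.05 with the scaling used and 0.25 with library totals only, and 0.07 and 0.29 for TOM- DC2. With totals only, 4790 genes passed as higher and 1828 as lower in young TOM+ cDC2, against 3039 and 2822. For TOM- DC2 the numbers were 5010 and 1468 against 2809 and 2438. Ifngr1, Jak3 and Tyk2 kept their direction and passed under each scaling.

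The genes that act with the receptors and kinases were described by lists. All 8 genes of the STAT and IRF list described here passed as lower in young TOM+ cDC2, with a median log2 fold change of -0.87 against 0.05 over all genes, and all 8 passed for TOM- DC2 (median -0.75 against 0.07). Over all genes 19.5% and 16.9% passed as lower in these comparisons. By limma on log2(TPM + 1) with no filter, 5 of the 8 passed between TOM+ groups, against 5820 of 17326 genes. Stat4, which serves interleukin-12, was at 11.1 ± 3.19 TPM (SD, n = 3) in young TOM+ cDC2, 14.3 ± 5.17 in young TOM- DC2 and 47.0 ± 10.3 in adults, with log2 fold changes of -2.24 ± 0.25 (adjusted p = 2.44e-05) and -1.88 ± 0.25 (adjusted p = 9.59e-05). Stat3 (-1.05 ± 0.10), Irf1 (-0.98 ± 0.10) and Irf9 (-0.96 ± 0.09), which acts in the type I response, had the next largest values between TOM+ groups, and -0.996, -0.92 and -0.80 for TOM- DC2. Stat2, which also acts in the type I response, was at -0.78 ± 0.12 for TOM+ and at -0.66 ± 0.12 for TOM- young cells. Stat5a, Stat5b and Stat6, named after their values were seen, had -0.37, -0.56 and -0.43 between TOM+ groups. Between the young groups none of the 8 passed by edgeR, DESeq2 or limma, and 1 had an unadjusted p below 0.05, as 9.38% of all genes had.

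Without the replicate block, inhibitors of the pathway passed against adults about as often as genes in general. Of 20 negative regulators, 6 passed as lower and 4 as higher in young TOM+ cDC2 (median 0.10), and 6 and 3 for TOM- DC2 (median 0.10), where 15 passed with the replicate block. Over all genes the shares were 40.6%, 36.3% and, with the block, 45.3%. Usp18, which binds IFNAR2 and dampens its signal, fell by 2.13 on the log2 scale in young TOM+ cDC2 (adjusted p = 3.84e-08) and by 1.84 in TOM- DC2 (adjusted p = 1.38e-07). It was at 36.8 ± 3.99, 46.5 ± 1.92 and 149 ± 15.4 TPM (SD, n = 3). Socs2, an inhibitor of growth hormone signals (-1.82 ± 0.23 and -1.38 ± 0.23) and Ptprc, the phosphatase CD45 (-0.79 ± 0.11 and -0.80 ± 0.11), were also lower in young cells. Cish, an inhibitor of STAT5, was higher, with 1.99 ± 0.27 and 2.19 ± 0.27 in log2. Socs3, the inhibitor of gp130 signals, passed as higher in young TOM+ cDC2 (0.68 ± 0.18, adjusted p = 0.0086), while TOM- DC2 had 0.31 ± 0.18 (adjusted p = 0.194). Socs1, which inhibits JAK1, JAK2 and TYK2, had -0.21 ± 0.21 (adjusted p = 0.452) and 0.19 ± 0.21 (adjusted p = 0.502). Between the young groups 0 passed by edgeR, DESeq2 or limma, with 1 at an unadjusted p below 0.05, as 9.38% of all genes had. With the replicate block 3 passed, against 6.57% of all genes.

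**Figure D5:**
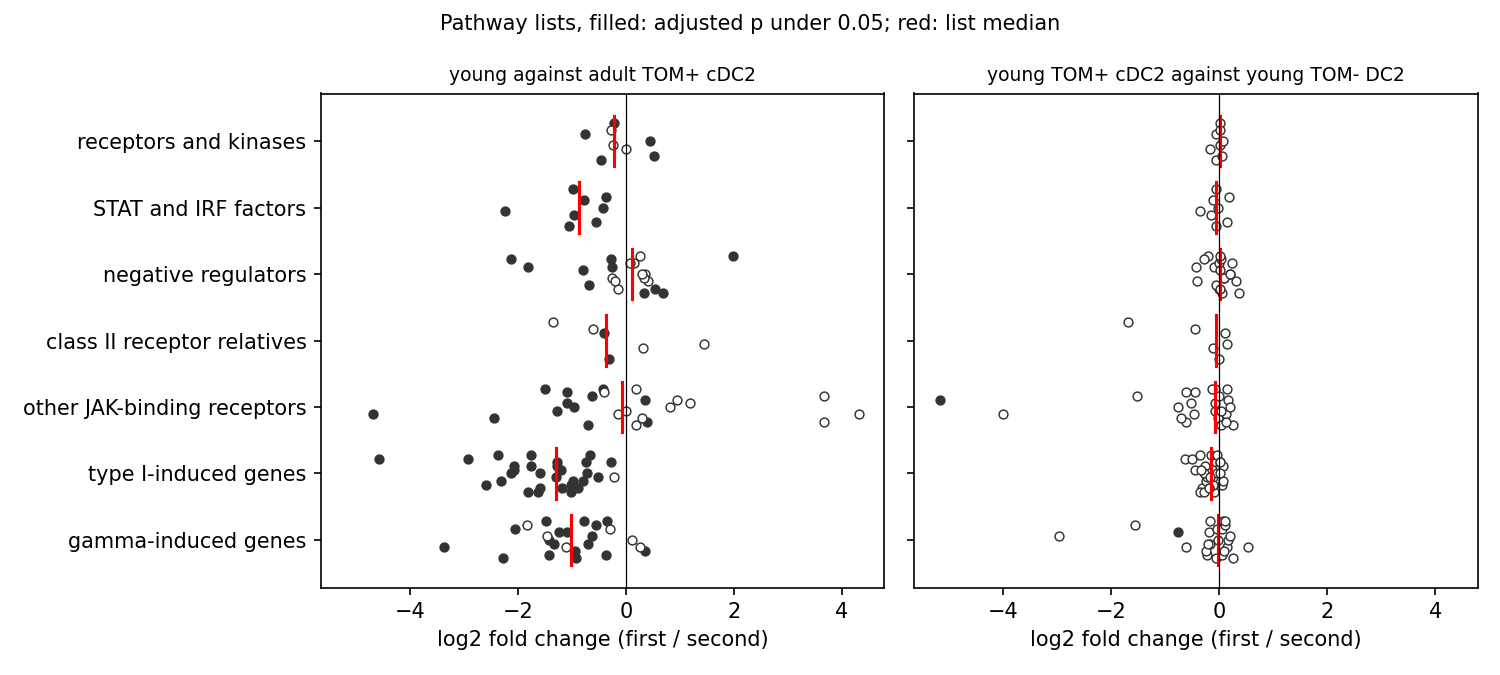
Log2 fold changes of the tested genes of each list, filled where the adjusted p was below 0.05, with the list median in red, for young against adult TOM+ cDC2 (left) and young TOM+ cDC2 against TOM- DC2 (right). On the left the STAT and IRF list and both lists of interferon-induced genes have medians of -0.87, -1.29 and -1.03, and that of the receptors and kinases is nearer 0.

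Of the class II cytokine receptor relatives, 6 of 8 genes were tested and 2 passed, both chains of the interleukin-10 receptor, against 40.6% and 36.3% of all genes in the comparisons of TOM+ and TOM- young cells with adults. Il10ra had -0.41 ± 0.11 for TOM+ and -0.52 ± 0.11 for TOM- young cells, and Il10rb, the neighbour of Ifnar2, -0.32 ± 0.09 and -0.31 ± 0.09. With library totals only, 1 passed for TOM+ and 0 for TOM- young cells, limma on log2(TPM + 1) gave 0 and 1, and without adult replicate 3, 1 passed for TOM- cells. Ifnlr1, the chain for interferon lambda, had 11 to 29 counts per library. Between the young groups 0 passed by edgeR, DESeq2 or limma, also at an unadjusted p below 0.05.

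Other receptors that use JAKs also passed about as often as genes in general, but most of those passing were lower in young cells. Of 24 tested, 10 passed as lower and 2 as higher in young TOM+ cDC2 (median -0.08), and 8 and 2 for TOM- DC2 (median -0.06). Over all genes 40.6% and 36.3% passed in either direction, 19.5% and 16.9% as lower and 21.0% and 19.4% as higher. Il21r, a partner of the common gamma chain, had -1.51 ± 0.12 and -1.44 ± 0.12, Csf3r, the receptor for G-CSF, -1.28 ± 0.16 and -1.20 ± 0.16, and Il15ra, a chain for interleukin-15, -1.10 ± 0.14 and -1.01 ± 0.14. Il12rb2 had -1.09 ± 0.13 in the first comparison and Il6st, which encodes gp130, -1.16 ± 0.12 in the second. Il2rg, the common gamma chain itself and the anchor of JAK3, was named after its values were seen. It was at 573 ± 29.7, 570 ± 37.2 and 842 ± 12.4 TPM (SD, n = 3), with -0.71 ± 0.08 (adjusted p = 2.45e-05) and -0.74 ± 0.08 (adjusted p = 2.34e-05), opposite in direction to Jak3. Between the young groups 1 of the 24 passed, against 1.60% of all genes. This was Il2rb, also named after its values were seen. It had 1 to 4 counts in young TOM+, 48 to 114 counts in TOM- and 0 to 1 counts in adult libraries. The summed innate lymphoid markers were higher in TOM- than in young TOM+ libraries too, but on average highest in adults. The part of such cells was not tested. With the replicate block, 5 passed, against 6.57% of all genes. With limma on log2(TPM + 1), 0 passed, against 137 of 11292 genes.

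Most genes of the lists that interferons induce passed as lower in young cells, against 19.5% and 16.9% of all genes. Of 30 type I-induced genes, 29 passed as lower in young TOM+ cDC2 (median -1.29), and 27 for TOM- DC2 (median -1.15), with none higher. The antiviral genes Oas2 (-2.93 ± 0.21), Oas3 (-2.60 ± 0.19), Oasl2 (-2.38 ± 0.11) and Ifit3 (-2.32 ± 0.18) had the largest values between TOM+ groups. For TOM- DC2 they were Oas3 (-2.64 ± 0.19), Oas2 (-2.43 ± 0.20), Zbp1 (-2.15 ± 0.17) and Ifit3 (-2.09 ± 0.18). Of 24 gamma-induced genes, 17 passed as lower and 1 as higher in each of these comparisons (medians -1.03 and -0.75). Cxcl9, a chemokine for T cells, had -2.28 ± 0.14 and -2.53 ± 0.14, Nlrc5, which drives MHC class I genes, -2.06 ± 0.13 and -2.11 ± 0.13, and Cd274, which encodes PD-L1, -1.49 ± 0.13 and -1.56 ± 0.13. Of the guanylate-binding proteins, Gbp4 had -1.43 ± 0.13 in the first and Gbp5 -1.40 ± 0.25 in the second. The gene that passed as higher was Gbp7 in both, named after its values were seen, with 0.36 ± 0.12 (adjusted p = 0.034) and 0.60 ± 0.12 (adjusted p = 0.0020).

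Between the young groups, 0 of 30 type I-induced genes passed by edgeR, DESeq2 or limma, with 7 at an unadjusted p below 0.05 (median -0.16), as 9.38% of all genes had. The count was 7 with the replicate block, with which 6.57% of all genes passed, and 1 without TOM+ replicate 1. Of the gamma-induced genes 1 passed, Irf8, against 1.60% of all genes. Irf8, a transcription factor of DC, had -0.77 ± 0.11 (adjusted p = 0.0027). It was at 23.6 ± 3.13 TPM (SD, n = 3) in TOM+ against 41.5 ± 2.55 TPM in TOM- young cells. With the block, and without TOM+ replicate 1, 2 gamma-induced genes passed. Over all genes these were 6.57% with the block and 233 of 14398 without that replicate.

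The interferon genes themselves were all below the filter on low counts and were not tested. Of 21 in the files, 17 had no count in any library, which allows up to 0.132 to 0.235 CPM in each library by counting error alone. This limit holds only for reads that fit a single gene, since others are not in these counts. Hba-a1, for example, had 0 counts in every library but up to 444 TPM. Of the interferon genes with no count, Ifnab reached 0.13 TPM and the others stayed at 0 TPM. Ifnb1 and Ifna1 had at most 1 count, Ifng at most 2 and Ifnk at most 3.

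The genes most like Ifngr1 in their centred log2(TPM + 1) over the 9 libraries, among 9083 genes with a mean TPM of at least 5, were Tnfaip8, Tmem51 and Smim3, with root mean square differences of 0.048, 0.057 and 0.065. Tnfaip8 was at 202 ± 14.8, 215 ± 11.2 and 308 ± 45.0 TPM (SD, n = 3) in young TOM+, young TOM- and adult cells. Of these 3, 1 stayed among the first 3 without TOM- replicate 3 or adult replicate 3. Those most like Jak3 were Gm6251, Gtf3a and Dctn1, with 0.067, 0.068 and 0.069. Gtf3a, a factor for 5S RNA genes, was at 76.0 ± 8.89, 74.7 ± 9.17 and 47.0 ± 1.48 TPM. None of them stayed without TOM+ replicate 1, and 1 stayed without TOM+ replicate 2 or 3, TOM- replicate 3, or adult replicate 2 or 3.

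Promoters of the 8 genes, as 250 bases before to 50 after the start in RefSeq (GRCm38.p6), were searched on both strands for TTCNNNGAA, the core of the gamma-activated site bound by STAT factors, and GAAANNGAA, the core of the interferon-stimulated response element. The first was found in 8.30% and the second in 8.56% of 32851 promoters. Among the 8 genes the first was found in Ifnar1 and Ifnar2 and the second in Jak3. These 3 promoters are shown with the match in capitals, so that its place can be seen beside the values above. A match is a description of letters and not of binding.
Ifnar1, chr16:91484965-91485264, plus strand: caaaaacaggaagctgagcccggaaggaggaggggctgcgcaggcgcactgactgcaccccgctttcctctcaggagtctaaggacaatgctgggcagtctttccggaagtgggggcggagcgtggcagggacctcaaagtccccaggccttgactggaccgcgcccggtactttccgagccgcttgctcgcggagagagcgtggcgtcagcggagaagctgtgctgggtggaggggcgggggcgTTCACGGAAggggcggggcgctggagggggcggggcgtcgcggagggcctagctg
Ifnar2, chr16:91372533-91372832, plus strand: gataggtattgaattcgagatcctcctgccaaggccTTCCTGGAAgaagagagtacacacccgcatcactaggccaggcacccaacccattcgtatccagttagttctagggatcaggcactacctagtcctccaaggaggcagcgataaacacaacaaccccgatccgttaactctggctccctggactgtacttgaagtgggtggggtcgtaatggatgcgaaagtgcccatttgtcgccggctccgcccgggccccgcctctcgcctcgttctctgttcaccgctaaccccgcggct
Jak3, chr8:71676133-71676432, plus strand: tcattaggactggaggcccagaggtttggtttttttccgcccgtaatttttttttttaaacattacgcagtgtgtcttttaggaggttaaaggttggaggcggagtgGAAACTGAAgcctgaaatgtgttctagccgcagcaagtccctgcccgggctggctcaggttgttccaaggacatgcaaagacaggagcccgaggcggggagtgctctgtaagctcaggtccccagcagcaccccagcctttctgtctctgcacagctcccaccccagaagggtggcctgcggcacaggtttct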

How the data were processed

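RNA of 9 libraries was made into cDNA with SMART-seq v4 and sequenced as single reads of 50 bases. Per the labels, the authors aligned reads with STAR to mm10 and ran RSEM. Versions were not given in the sources used here. The deposited STAR counts per gene, without normalization, were used from the column that ignores strand, since both strands held like numbers. The deposited RSEM files hold expected counts, rounded here where tested, TPM, which are relative to each library and to transcript length, and weighted transcript lengths. FPKM were not used. Depth was 12783252 to 22809401 gene counts. STAR's summary lines (reads on no single gene, 26.1% to 31.6% of reads) were left out of library sizes. Reads of overlapping genes could not be told apart by strand.

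Groups came from the labels, which name no separate animals, so that p-values measure the spread between these libraries. Counts of all 9 libraries in 3 groups were tested with edgeR 4.0.16 (R 4.3.3, quasi-likelihood, TMM scaling, average count of at least 1), with Benjamini-Hochberg adjustment over 14452 genes and SE derived from the test statistic. Ratios, shares and lengths were tested with exact two-sided permutation tests (scipy 1.17.1). Alternatives used DESeq2 1.42.0, limma 3.58.1 on log2(TPM + 1) or log2(TPM + 0.1), other filters and scalings, expected counts, 2 groups only, a replicate block and each library left out. The steps were tested on simulated data. The library number in deposited names paired the young groups, since deviations of same-numbered libraries correlated at 0.758, 0.535 and 0.519 over 10112 genes (different numbers, -0.524 to 0.147). The block within young libraries only was chosen after seeing the data.

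The genes and lists were chosen with earlier results of these data known. All 8 genes are named. From each list, up to 4 passing genes per comparison with the largest change and an average count of at least 50 are named, and Stat2, Irf9, Socs1, Socs3 and Usp18 always. A gene of the STAT and IRF list is not reported here and was left out of its counts. The genes most alike are given for the genes with the highest and the lowest fold change between young and adult TOM+ cDC2. Sequences come from RefSeq promoters (GRCm38.p6), where all 8 genes matched, and from GENCODE M21 transcripts. Protein sequences were not used here.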

Additional observations from a re-analysis of the deposited data

How the results depend on the processing

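The number of the 8 genes past the test between young and adult TOM+ cDC2, 5, became 3 with library totals only and with limma on log2(TPM + 1) without a filter, became 7 with the replicate block, and ranged from 4 to 5 on leaving out each library. For young TOM- DC2 against adults, 5 became 3 with limma on log2(TPM + 1), on log2(TPM + 0.1) and on log2(TPM + 1) without a filter, became 8 with the replicate block, and ranged from 3 to 6 on leaving out each library. Between the young groups it was 0 under every alternative, and no gene was called in any comparison under any alternative. With the replicate block over all libraries, Jak1 and Jak2 against adults and Ifnar2 in TOM- DC2 newly passed, and with the block within young libraries only, Ifnar1 no longer passed against adults; neither block changed another of the 8 genes. Over all genes the first raised those passing between the young groups from 231 to 949 (405 with the block within young libraries only, chosen after seeing the data). Fewer genes passed there with limma on log2(TPM + 1), 137, and more with DESeq2, 367. No result changed direction past the threshold. With counts per kilobase at a fixed length, the difference in the log2 ratio of Ifnar1 to Ifnar2 moved from 0.03 to -0.22 for young against adult TOM+ cDC2 and from -0.15 to -0.41 for TOM- DC2, since a fixed length drops the difference in weighted length. With 3 libraries a group, no permutation test could fall below 0.1.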
